A study of Homo sapiens with 12 samples.

Results

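The genes described here are 40 HIF regulators and hypoxia response genes: 3 subunits of the hypoxia-inducible factors (HIF), 5 oxygen sensors or degraders of HIF, and 32 genes known as HIF targets outside glycolysis. They were chosen by symbol from a fixed list, and all 40 were found among the 57820 genes of the count files. The study holds 12 RNA-seq libraries of PLC/PRF/5, a human hepatoma cell line that carries integrated hepatitis B virus DNA. The series asks what HKDC1, a hexokinase relative, does in liver cancer cells, and its title names hypoxia. By their titles, 4 libraries were controls, given as WT. The other 8 came from cells with HKDC1 knocked out, in 2 lines (KO1 and KO2): 2 knockout libraries per line and 2 libraries per line in which HKDC1 was put back (KO1 RES and KO2 RES, called rescue here). Each pair is numbered 1 and 2. The labels give no oxygen level, do not say whether a line is a single clone, how HKDC1 was removed or what drives its return, and do not say whether libraries came from separate cultures. What the p-values measure is thus no more than the spread from sample to sample, which may be technical.

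In oxygen, the prolyl hydroxylases EGLN1, EGLN2 and EGLN3 mark the HIF alpha subunits HIF1A and EPAS1 (HIF-2 alpha), VHL recognises the mark as part of a ubiquitin ligase, and the alpha subunits are degraded. When oxygen is low they escape, pair with ARNT and bind short DNA elements near target genes. HIF1AN separately blocks their transactivation while oxygen is present. HIF activity is thus set largely at the protein level, which RNA counts do not measure. In liver cancer the pathway is known for its part in vessel growth, matrix remodelling and the adaptation of mitochondria.

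HIF binds a core of ACGTG or GCGTG, so the 250 bases before the annotated start of each gene were searched for both words on both strands. RefSeq's promoter table (GRCh38.p14) held 32 of the 40 genes, with 45 starts. VHL, NDRG1, BNIP3L, ANKZF1, VEGFA, JMJD6, LOXL2 and HILPDA were not among them. At least 1 match lay before 84.4% of these 32 genes, or 80.0% of their starts, against 47.4% of the 27305 genes and 43.2% of the 35116 starts in the table. By starts, ACGTG was found in 53.3% against 18.5% and GCGTG in 55.6% against 32.2%. ARNT, EGLN3, HIF1AN, P4HA2 and RORA had no match in these windows. The windows of 6 genes are shown, because the comparisons below turn on these genes. Among the knockout and rescue libraries, CA9 and DDIT4 did not overlap between numbers 1 and 2. INSIG2, PLOD1 and EGLN2 did not overlap either, and their windows are not shown. PLOD2 and BHLHE40 set the lines apart. P4HA1 and BNIP3 stood below the controls in every knockout and rescue library. Each is written 5′ to 3′ along the gene's strand, ending at the base before the start. Capitals mark ACGTG or GCGTG on either strand, so that CACGT and CACGC are matches on the other strand and CACGTG is 1 match on each.
CA9 (plus strand, chr9:35673678-35673927, 1 match): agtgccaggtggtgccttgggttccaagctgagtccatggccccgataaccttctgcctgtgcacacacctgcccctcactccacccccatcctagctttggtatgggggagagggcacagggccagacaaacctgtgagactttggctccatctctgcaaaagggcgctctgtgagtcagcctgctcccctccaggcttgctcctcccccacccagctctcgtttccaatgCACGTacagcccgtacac
DDIT4 (plus strand, chr10:72273674-72273923, 3 matches): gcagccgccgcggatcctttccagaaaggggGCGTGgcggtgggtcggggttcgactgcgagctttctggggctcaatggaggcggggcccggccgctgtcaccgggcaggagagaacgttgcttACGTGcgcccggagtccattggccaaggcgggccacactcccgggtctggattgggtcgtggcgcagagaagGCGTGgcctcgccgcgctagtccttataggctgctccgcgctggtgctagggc
PLOD2 (minus strand, chr3:146161185-146161434, 3 matches): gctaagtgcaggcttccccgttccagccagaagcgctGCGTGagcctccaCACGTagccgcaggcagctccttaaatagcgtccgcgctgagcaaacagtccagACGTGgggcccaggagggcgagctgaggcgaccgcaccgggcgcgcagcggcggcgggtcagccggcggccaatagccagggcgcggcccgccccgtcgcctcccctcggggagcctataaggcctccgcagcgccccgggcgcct
BHLHE40 (plus strand, chr3:4979187-4979436, 4 matches): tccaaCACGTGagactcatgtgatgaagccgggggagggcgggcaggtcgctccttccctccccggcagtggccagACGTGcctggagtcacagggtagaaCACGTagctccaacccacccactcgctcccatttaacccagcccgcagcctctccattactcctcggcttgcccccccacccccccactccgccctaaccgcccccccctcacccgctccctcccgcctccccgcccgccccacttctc
P4HA1 (minus strand, chr10:73096867-73097116, 1 match): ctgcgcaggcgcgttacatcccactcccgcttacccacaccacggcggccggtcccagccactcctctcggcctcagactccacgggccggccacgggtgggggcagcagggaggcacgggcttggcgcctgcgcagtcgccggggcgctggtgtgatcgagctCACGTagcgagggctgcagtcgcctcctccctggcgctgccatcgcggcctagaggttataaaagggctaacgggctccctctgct
BNIP3 (minus strand, chr10:131981924-131982173, 6 matches): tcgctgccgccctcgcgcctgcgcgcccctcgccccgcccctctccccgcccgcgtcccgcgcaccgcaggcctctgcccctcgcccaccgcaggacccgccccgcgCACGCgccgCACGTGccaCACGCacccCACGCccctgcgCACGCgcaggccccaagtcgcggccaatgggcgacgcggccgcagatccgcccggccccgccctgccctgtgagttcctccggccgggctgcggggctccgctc
The single CA9 match begins 18 bases before the start, and the P4HA1 match 86 bases before it. In BNIP3 all 6 matches lie within 143 bases of the start. A match describes these letters and is not a measured binding site.

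Each library held 36075411 to 71853616 counts over genes. Levels are in CPM, a gene's counts as parts of a fixed library total after TMM scaling. A value of 3 counts, from 0.0407 to 0.0848 CPM by library, is taken as the floor. Reads carry no molecular identifiers, so this floor covers counting error only. The genotype field goes against the title for 4 libraries (KO1 2, KO2 2, KO1 RES 1 and KO2 RES 1) and divides the 8 knockout and rescue libraries by their number, calling number 1 knockout and number 2 rescue. HKDC1 stood at 157, 154, 184 and 124 CPM in the controls. KO1 had 153 and 146 CPM, inside the range of the controls, and KO2 had 91.4 and 49.2 CPM. In the libraries titled rescue it was at 1240 and 1544 CPM (line 1) and 508 and 622 CPM (line 2), above every other library. RNA counts thus separate the titled rescue libraries from the titled knockouts, and give no check of the KO1 label. Controls 1 and 2 also stood apart from controls 3 and 4: the hepatocyte gene ALB had 907 and 823 CPM in the first pair against 23.1 and 28.2 CPM in the second. In bulk RNA, fewer cells with a transcript and less of it per cell cannot be told apart. Comparisons with control are therefore also given against each pair alone. Groups were compared with edgeR's quasi-likelihood test over all genes, and a gene was called at a Benjamini-Hochberg adjusted p under 0.05. Differences below are on the log2 scale, ± 1 SE. In every pair of values, number 1 comes first.

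The RNA of the HIF subunits was level across the study except for EPAS1. HIF1A stood at 182, 181, 179 and 177 CPM in controls 1 to 4, at 190 and 167 in KO1, 171 and 179 in KO1 rescue, 193 and 179 in KO2, and 190 and 182 in KO2 rescue. The highest library was only 1.16 times the lowest, and knockout minus control was 0.02 ± 0.08 (adjusted p = 0.90). ARNT, the shared partner, ranged from 75.5 to 94.7 CPM. It was 84.6, 82.7, 87.4 and 79.8 in the controls, 78.8 and 75.5 in KO1, 83.7 and 79.7 in KO1 rescue, 94.7 and 82.9 in KO2, and 91.2 and 80.3 in KO2 rescue, so that KO1 lay just below the controls and the other groups overlapped them. EPAS1 was at 293, 289, 156 and 178 CPM in controls 1 to 4, so that the control pairs differed 1.75-fold. It was at 319 and 326 CPM in KO1, 300 and 334 in KO1 rescue, 238 and 259 in KO2, and 224 and 235 in KO2 rescue. All line 1 libraries were above all line 2 libraries. Against the 4 controls EPAS1 was not called (0.31 ± 0.19 for the mean of the lines, adjusted p = 0.32). Against controls 3 and 4 alone it was called higher, by 0.77 ± 0.12 (adjusted p = 0.0029), with 0.96 for KO1 and 0.57 for KO2. Against controls 1 and 2 alone it was not called. Per kilobase of exon (GENCODE release 29 lengths), HIF1A and EPAS1 were of like abundance. The ratio of EPAS1 to HIF1A was 1.14 and 1.13 in controls 1 and 2, 0.61 and 0.71 in controls 3 and 4, 1.19 to 1.38 in line 1, and 0.83 to 1.02 in line 2.

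Among the sensors, VHL separated the knockout lines from the controls. VHL stood at 56.4, 53.2, 62.4 and 66.7 CPM in the controls, 124 and 126 in KO1, 112 and 129 in KO1 rescue, 82.4 and 82.9 in KO2, and 76.5 and 86.9 in KO2 rescue. All 8 knockout and rescue libraries lay above all 4 controls, and all line 1 libraries lay above all line 2 libraries. VHL rose by 1.07 ± 0.11 in KO1 (adjusted p = 2.30e-04) and by 0.47 ± 0.11 in KO2 (adjusted p = 0.028). The rise in KO1 was 0.96 against controls 3 and 4 alone and 1.17 against controls 1 and 2 alone, and was called both times. The KO2 call was lost without control 1, control 2, KO2 1 or KO2 2 (adjusted p from 0.070 to 0.15) and against controls 3 and 4 alone. It was also lost without a filter on low counts and with only the compared groups fitted, so in 7 of 20 alternatives.

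HIF1AN, the asparaginyl hydroxylase, followed the lines in the other sense. It was at 89.9, 80.0, 109 and 110 CPM in controls 1 to 4, 71.5 and 95.7 in KO1, 80.0 and 86.2 in KO1 rescue, 121 and 136 in KO2, and 117 and 125 in KO2 rescue. Every line 2 library was above every other library. EGLN1, the main HIF prolyl hydroxylase, was at 161, 148, 158 and 133 CPM in the controls, 153 and 124 in KO1, 133 and 129 in KO1 rescue, 179 and 152 in KO2, and 163 and 110 in KO2 rescue. EGLN2 was at 16.6, 14.9, 18.3 and 13.5 CPM in the controls, 19.3 and 14.2 in KO1, 17.0 and 13.1 in KO1 rescue, 22.3 and 16.2 in KO2, and 19.2 and 12 in KO2 rescue. For EGLN1 and EGLN2, number 2 was below number 1 in all 4 pairs of one line and group. EGLN2 shares 30.6% of its exon length with other transcripts, RAB4B-EGLN2 among them, so its counts could be split by the authors' counting. EGLN3, itself a HIF target in many cells, was low in every library, with 4 to 32 counts. It was at 0.179, 0.467, 0.288 and 0.408 CPM in the controls, 0.176 and 0.0933 in KO1, 0.137 and 0.113 in KO1 rescue, 0.129 and 0.326 in KO2, and 0.131 and 0.191 in KO2 rescue. None of the EGLN genes was called in knockout against control.

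**Figure D1:**
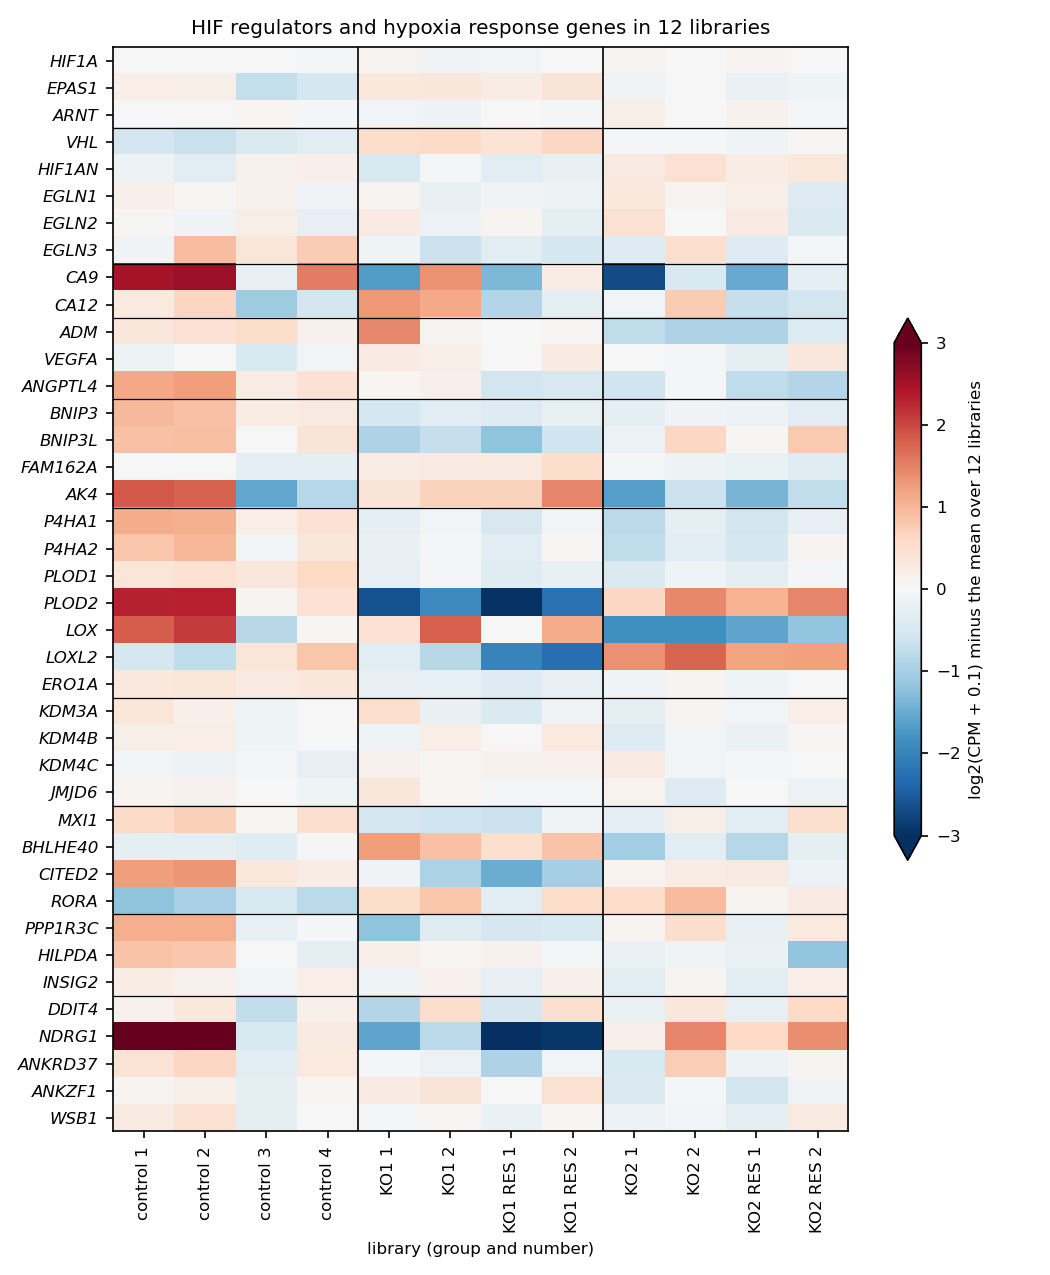
Levels of the 40 genes (rows, grouped by role) in the 12 libraries (columns), as log2(CPM + 0.1) minus the gene's mean over all libraries. The color scale is clipped at 3 in both directions. Controls 1 and 2 are high for NDRG1, PLOD2, CA9, AK4 and LOX, line 1 is low for PLOD2 and NDRG1, and HIF1A and ARNT are nearly flat.

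The 2 pairs of controls differed in many of the targets. Both of controls 1 and 2 exceeded both of controls 3 and 4 for 24 of the 40 genes (60%, against 30.1% of all genes tested), and both were below for 4 (HIF1AN, LOXL2, RORA and VHL; 10% against 31.6%). The pair means were at least 1.5-fold apart in the upward sense for 15 genes (37.5%, against 14.2%). NDRG1, a stress-responsive growth regulator, differed 8.33-fold, with 157 and 158 CPM in the first pair and 14.2 and 23.7 CPM in the second. AK4, a mitochondrial adenylate kinase, differed 7.99-fold, with 79.4 and 75.0 against 7.37 and 12 CPM. LOX, a collagen cross-linking oxidase, differed 7.06-fold at a low level (1.16 and 1.43 against 0.102 and 0.266 CPM). PLOD2, a collagen lysyl hydroxylase, differed 4.16-fold, and CA9, the membrane carbonic anhydrase often used as a hypoxia marker, 3.17-fold. CA9 had 6.91 and 7.23 CPM in the first pair against 0.966 and 3.49 CPM in the second. HIF1A differed 1.02-fold between the pairs. The labels do not divide the controls, so these are values with no test.

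Knockout against control, taken as the mean of both lines, moved some of the target genes. Of the 40 genes, 9 fell and 2 rose, while 16.1% of all 20559 genes tested were called (6.75% higher, 9.36% lower). The median difference of the 40 was -0.19, against -0.02 over all genes. The enzymes of collagen and secretory protein folding held 5 of the 9 falls, out of 7 such genes: P4HA1, P4HA2, PLOD1, PLOD2 and ERO1A. The others were BNIP3 (mitophagy), ANGPTL4 (a secreted inhibitor of lipoprotein lipase), and the transcription regulators MXI1 and CITED2. VHL and RORA, a nuclear receptor, rose. In all 8 knockout and rescue libraries ANGPTL4, BNIP3, ERO1A, P4HA1 and PLOD1 were below all 4 controls (12.5% of the genes, against 5.25% of all genes) and VHL and RORA above (5%, against 3.78%). The same 5 and 2 genes result when the 4 knockouts alone are set against the controls, where 8.44% of all genes lie below and 7.81% above. None of the HIF subunits, EGLN genes or enzymes of the JmjC family (KDM3A, KDM4B, KDM4C, JMJD6) was called.

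PLOD1, a lysyl hydroxylase, was at 288, 308, 287 and 339 CPM in controls 1 to 4, with 189 and 214 in KO1, 176 and 192 in KO1 rescue, 167 and 206 in KO2, and 187 and 220 in KO2 rescue. It fell by 0.65 ± 0.11 (adjusted p = 0.0029), and by 0.69 and 0.64 against controls 3 and 4 or 1 and 2 alone. ERO1A, the oxidase that drives disulfide formation, was at 323, 337, 313 and 329 CPM in the controls, 219 and 220 in KO1, 199 and 221 in KO1 rescue, 242 and 275 in KO2, and 239 and 258 in KO2 rescue. It fell by 0.45 ± 0.08 (adjusted p = 0.0055). Both genes had close control pairs, at ratios of 0.95 and 1.03.

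The prolyl hydroxylases of collagen had control pairs 1.71-fold apart. P4HA1 was at 153, 149, 81.0 and 95.3 CPM in the controls, 59.0 and 67.3 in KO1, 50.4 and 66.7 in KO1 rescue, 41.1 and 57.5 in KO2, and 48.5 and 59.6 in KO2 rescue. Its fall was 1.10 ± 0.22 against all controls (adjusted p = 0.0076). Against controls 3 and 4 alone P4HA1 fell by 0.66 (adjusted p = 0.033), and by 1.46 against controls 1 and 2. P4HA2 was at 91.2, 103, 48.4 and 65.0 CPM in the controls, 44.4 and 49.7 in KO1, 41.0 and 53.1 in KO1 rescue, 30.1 and 41.2 in KO2, and 35.8 and 54.6 in KO2 rescue. The libraries KO1 2, KO1 RES 2 and KO2 RES 2 lay above control 3. P4HA2 was at -0.91 ± 0.24 (adjusted p = 0.026), but at -0.47 (adjusted p = 0.18) against controls 3 and 4 alone.

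BNIP3, a mitochondrial receptor for autophagy, was at 118, 110, 69.8 and 72.7 CPM in the controls, 41.3 and 47.2 in KO1, 46.2 and 51.4 in KO1 rescue, 49.9 and 56.0 in KO2, and 53.5 and 47.6 in KO2 rescue. It fell by 0.94 ± 0.17 (adjusted p = 0.0052), and by 0.56 against controls 3 and 4 alone (adjusted p = 0.012). Its relative BNIP3L was at 52.1, 52.9, 28.9 and 37.2 CPM in the controls with line 1 below all of them and line 2 overlapping: 15 and 17.5 in KO1, 12.2 and 18.9 in KO1 rescue, 25.0 and 44.1 in KO2, and 29.2 and 48.9 in KO2 rescue. ANGPTL4 was at 60.4, 64.7, 31.4 and 36.1 CPM in the controls, 28.0 and 30.0 in KO1, 18.3 and 19.3 in KO1 rescue, 17.8 and 26.0 in KO2, and 15.9 and 14.6 in KO2 rescue. The KO1 values of ANGPTL4 lie just under control 3, and its difference of -0.93 ± 0.23 (adjusted p = 0.019) was -0.42 (adjusted p = 0.11) against controls 3 and 4 alone.

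Among the transcription regulators, MXI1, an antagonist of MYC, was at 32.6, 36.3, 22.5 and 31.3 CPM in the controls, 15.5 and 14.4 in KO1, 14.1 and 20.3 in KO1 rescue, 17.8 and 24.6 in KO2, and 17.2 and 30.7 in KO2 rescue. All line 1 libraries lay below the controls, and line 2 overlapped them. CITED2, which competes with HIF for the coactivator p300, was at 79.4, 84.0, 41.6 and 38.7 CPM in the controls, 31.1 and 17.3 in KO1, 11.8 and 16.6 in KO1 rescue, 36.2 and 38.9 in KO2, and 40.4 and 29.5 in KO2 rescue. Against controls 3 and 4 alone neither was called (MXI1 -0.59, adjusted p = 0.16; CITED2 -0.41, adjusted p = 0.30). RORA rose by 2.17 ± 0.37 (adjusted p = 0.0035) from a very low level. It was at 0.0716, 0.102, 0.186 and 0.124 CPM in the controls, 0.464 and 0.606 in KO1, 0.215 and 0.481 in KO1 rescue, 0.478 and 0.665 in KO2, and 0.319 and 0.367 in KO2 rescue. All 8 knockout and rescue libraries lay above the controls, which were close to the floor.

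Of these 11 calls, BNIP3, ERO1A, P4HA1, PLOD1, RORA and VHL were kept when any 1 library was left out. ANGPTL4 and P4HA2 lost theirs without control 1, control 2, KO1 1, KO1 2 or KO2 1 (adjusted p from 0.051 to 0.11), PLOD2 without KO1 1 or KO2 1 (0.075 both times), and MXI1 without control 1, 2 or 4, either KO1 library or KO2 1 (0.056 to 0.12). CITED2 lost its call without control 1, control 2, KO1 2, KO2 1, KO2 2 or either KO1 rescue library (up to 0.13). Against controls 3 and 4 alone 8 genes were called (13.6% of all genes), of which 6 were among the 11: BNIP3, ERO1A, P4HA1, PLOD1, RORA and VHL. EPAS1 and CA12 were then called higher. Against controls 1 and 2 alone 19 were called (23.4% of all genes), 16 of them lower, NDRG1, LOX, CA9 and AK4 among them. AK4 was called in KO1 against both pairs with opposite signs, at 1.74 ± 0.40 against controls 3 and 4 and -1.29 ± 0.35 against controls 1 and 2.

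**Figure D2:**
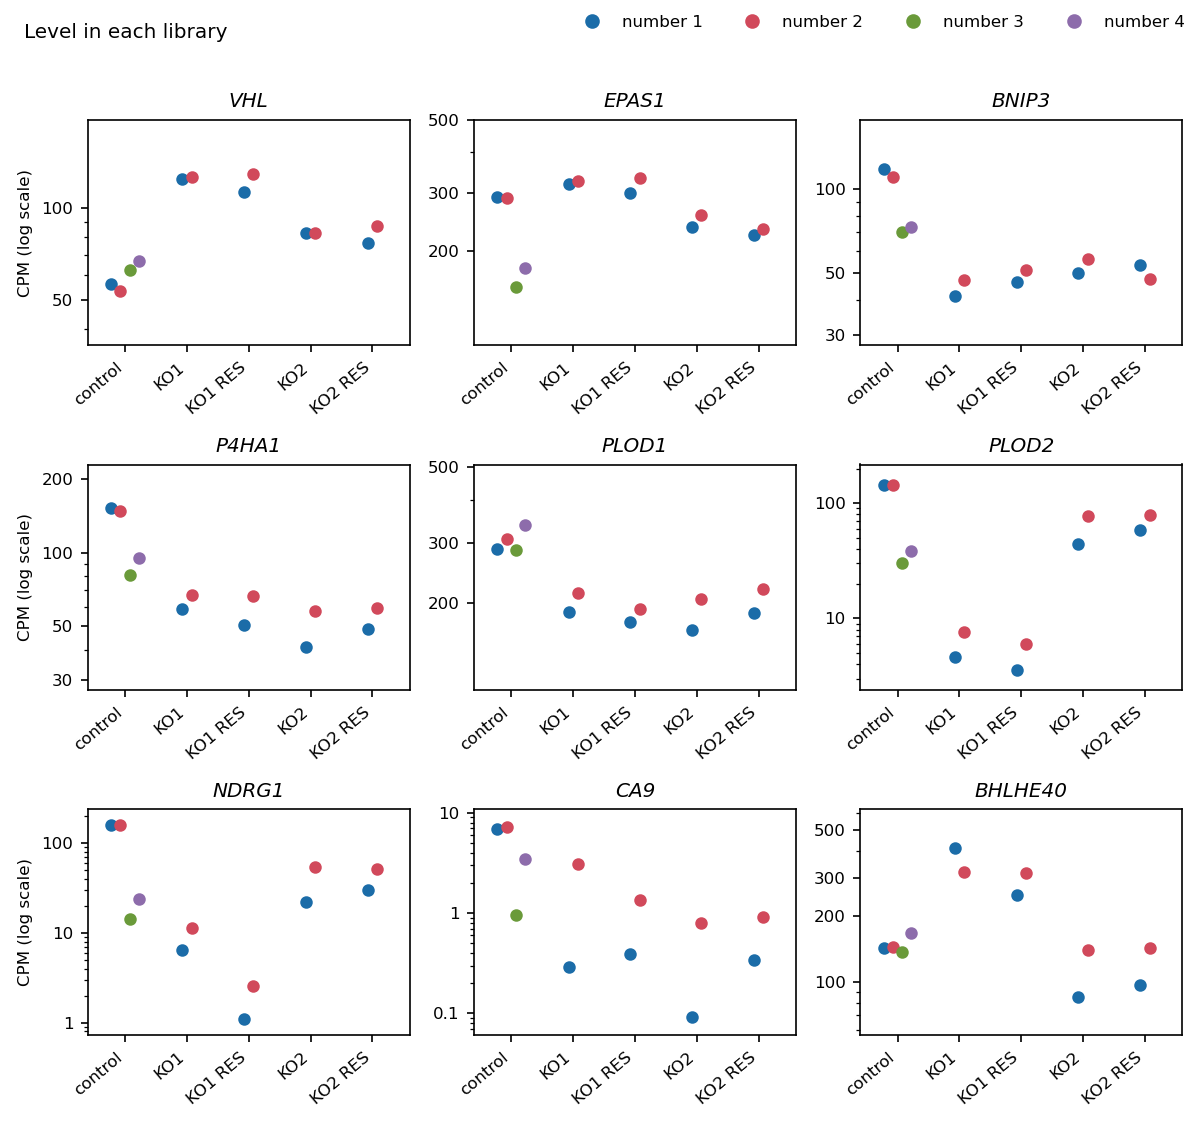
Level of 9 genes in each library, in CPM on a log axis, with 1 point per library colored by its number. VHL lies above, and BNIP3, P4HA1 and PLOD1 lie below, the 4 controls in all 8 knockout and rescue libraries. PLOD2, NDRG1 and BHLHE40 separate the lines. CA9 separates number 1 from number 2 among the 8 knockout and rescue libraries only.

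Taken line by line, 12 of the 40 genes were called in KO1 (3 higher, 9 lower), against 18.1% of all genes (8.36% higher, 9.74% lower). In KO2 10 were called (3 higher, 7 lower), against 10% of all genes (4.79% higher, 5.24% lower). Both comparisons share the 4 controls. VHL and RORA were called higher in both lines, and BNIP3, P4HA1 and PLOD1 lower in both. The median was -0.13 in KO1 and -0.27 in KO2, against -0.02 and 0.00 over all genes. With 2 libraries per line, the counts were fragile: they fell to 3 in KO1 without KO1 1, and to 1 in KO2 without KO2 1 or KO2 2. BHLHE40 and VHL in KO1 kept their calls whichever library was left out, and no call in KO2 did. Against controls 3 and 4 alone 12 genes were called in KO1 (17.6% of all genes) and 6 in KO2 (10.6%). Against controls 1 and 2 alone the counts were 16 (24.3%) and 17 (19.0%).

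**Figure D3:**
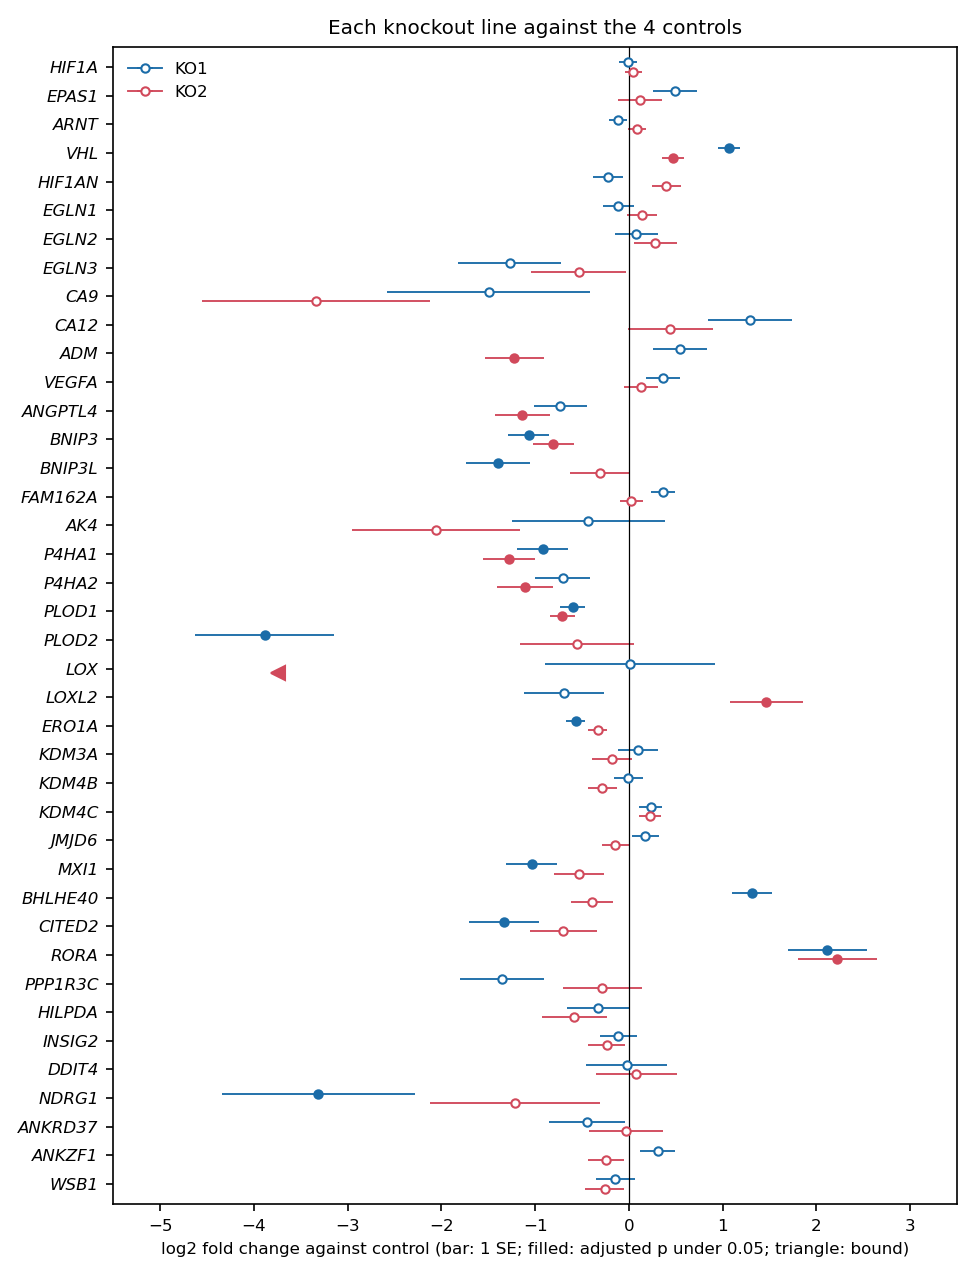
Difference of each knockout line from the 4 controls for the 40 genes, on the log2 scale with bars of 1 SE, filled where the adjusted p is under 0.05. The triangle for LOX in KO2 marks a bound of -3.74, because both KO2 libraries held no LOX counts. VHL and RORA are higher in both lines, while PLOD2, BHLHE40, LOXL2 and ADM are called in 1 of the 2 lines.

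The lines were compared directly as KO2 against KO1, which is also the difference between their knockout effects. Of the 40 genes, 6 were called, 4 lower and 2 higher in KO2, against 12% of all genes (6.26% higher, 5.72% lower). With the library number as a block over the 8 knockout and rescue libraries 17 were called, against 29% of all genes. Among the 40 genes with counts in both lines, PLOD2 had the largest fitted difference. It was at 143, 145, 30.5 and 38.7 CPM in the controls, 4.58 and 7.58 in KO1, 3.58 and 5.97 in KO1 rescue, 44.1 and 77.6 in KO2, and 58.8 and 79.4 in KO2 rescue. PLOD2 in line 1 was below every other library, and KO2 lay between the control pairs. The difference was 3.33 ± 0.76 (adjusted p = 0.018), and the KO1 fall of 3.88 ± 0.74 was 2.51 against controls 3 and 4 alone, called both times. BHLHE40, a repressor of the circadian clock family, was at 143, 145, 136 and 167 CPM in the controls, 415 and 320 in KO1, 250 and 317 in KO1 rescue, 85.5 and 140 in KO2, and 96.7 and 143 in KO2 rescue. It rose in KO1 by 1.31 ± 0.21 (adjusted p = 0.0025) and was at -0.39 ± 0.23 in KO2 (adjusted p = 0.32). KO2 minus KO1 was -1.70 ± 0.26 (adjusted p = 0.0025), and every line 1 library exceeded every control. The BHLHE40 call held whichever library was left out.

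LOXL2, a lysyl oxidase relative, was at 2.15, 1.80, 4.05 and 5.71 CPM in the controls, 2.51 and 1.73 in KO1, 0.705 and 0.566 in KO1 rescue, 8.26 and 10.7 in KO2, and 7.39 and 7.53 in KO2 rescue. All line 2 libraries were above the controls, and KO2 minus KO1 was 2.15 ± 0.49 (adjusted p = 0.018). LOX went the other way. It had no counts in either KO2 library and was at 0.0188 and 0.0587 CPM in KO2 rescue, the first of these under the floor, against 0.384 and 1.14 in KO1 and 0.254 and 0.679 in KO1 rescue. The KO1 mean was at least 13.8-fold higher than the KO2 floor of 3 counts per library, and the control mean at least 13.4-fold higher, or 3.3-fold for controls 3 and 4. The LOX call in KO2 against KO1 was lost without any 1 of the 4 libraries (adjusted p from 0.063 to 0.16). In unstranded counts KO2 minus KO1 was 0.0040 for LOX.

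ADM, the vasodilator peptide adrenomedullin, was at 51.4, 55.1, 59.6 and 44.4 CPM in the controls, 110 and 43.2 in KO1, 41.1 and 42.0 in KO1 rescue, 23.8 and 21.3 in KO2, and 21.4 and 30.7 in KO2 rescue. The library KO1 1 was above every other library, and all line 2 libraries were below the controls. KO2 minus KO1 was -1.77 ± 0.35 (adjusted p = 0.0093), and -0.93 (adjusted p = 0.054) without KO1 1. ADM fell in KO2 against control by 1.22 ± 0.31 (adjusted p = 0.034). VHL was lower in KO2 than in KO1 by 0.60 ± 0.14 (adjusted p = 0.017), with a like value when any 1 of the 4 libraries was left out (from -0.60 to -0.58), but then with an adjusted p from 0.089 to 0.10. Calls of PLOD2 and LOXL2 were lost without KO1 1, KO1 2 or KO2 2 (adjusted p from 0.079 to 0.15).

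Over knockout and rescue together, line 2 against line 1, 12 genes were called, 6 in each direction, against 26.9% of all genes (14.6% higher, 12.3% lower). With the number as a block 23 were called, against 44.5% of all genes. All line 1 libraries lay below all line 2 libraries for 7 genes (17.5%, against 16% of all genes) and above for 9 (22.5%, against 15.4%). Markers of other cells also moved with the lines. Of 6 fibroblast markers tested, out of 7, LUM, COL3A1, COL1A1 and PDGFRA were higher in line 2 than in line 1 (66.7%), by 4.48, 5.00, 1.14 and 1.26, and none was lower. The 7 markers summed to 6.82 to 11.9 CPM in the controls, 4.40 to 5.91 CPM in line 1 and 9.17 to 12.3 CPM in line 2, and COL1A2 was at or under 3 counts in every library. The 11 hepatocyte markers summed to 12243 to 22887 CPM in the controls, 17150 to 34730 CPM in line 1 and 4311 to 5544 CPM in line 2. Most of the line 1 sum was APOB, at 10432 to 27624 CPM in line 1 and 20.2 to 114 CPM in line 2. Of the 11, APOB and FGB were called lower in line 2 (18.2%) and HNF4A higher (9.09%). The part of these fibroblast and hepatocyte markers in the line differences of PLOD2, LOXL2 and the other genes was not tested. Beside the genes above, NDRG1, BNIP3L, CITED2 and HIF1AN were higher in line 2, and FAM162A and ANKZF1 lower. NDRG1 stood at 6.51 and 11.3 CPM in KO1, 1.10 and 2.54 in KO1 rescue, 21.8 and 54.4 in KO2, and 30.1 and 51.7 in KO2 rescue. Line 2 was higher by 3.31 ± 0.79 (adjusted p = 0.011), a call lost without KO1 1 or KO1 RES 1 (0.055 and 0.057). FAM162A, a mitochondrial protein, was at 46.2, 45.3, 37.5 and 38.0 CPM in the controls, 53.5 and 53.9 in KO1, 55.0 and 66.0 in KO1 rescue, 44.3 and 40.8 in KO2, and 39.3 and 35.5 in KO2 rescue. ANKZF1, a factor of ribosome quality control, was at 32.1, 34.1, 24.8 and 31.4 CPM in the controls, 36.0 and 39.7 in KO1, 29.8 and 41.3 in KO1 rescue, 22.3 and 29.4 in KO2, and 20.5 and 28.2 in KO2 rescue. For both genes every line 1 library exceeded every line 2 library, by fitted differences of 0.52 ± 0.10 and 0.55 ± 0.16. ANKZF1 lost its call without KO1 1, KO1 2, KO1 RES 2, KO2 1 or KO2 RES 1 (adjusted p from 0.058 to 0.11), and CITED2 without any line library except KO1 1 and KO2 RES 2 (0.051 to 0.12).

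Few of these genes differed between rescue and knockout. In rescue against knockout, as the mean of both lines, 0 of the 40 genes were called by edgeR and 3 had an unadjusted p under 0.05. Over all genes 0.00973% were called (0.00486% higher, 0.00486% lower). DESeq2 called 1 of the 40, CA12, against 0.665% of all genes. The numbers in the titles were taken to pair a rescue library with its knockout. When each such pair was given its own term in the fit (a pair block, 8 libraries) 4 genes were called, all lower in rescue. In that fit 2.92% of all genes were called. CA12, a carbonic anhydrase of the cell surface, was at 2.20, 2.85, 0.796 and 1.19 CPM in the controls. It went from 4.59 to 0.920 and from 4.03 to 1.44 CPM in the pairs of line 1, and from 1.69 to 1.07 and from 3.08 to 1.20 CPM in those of line 2. The paired difference was -1.47 ± 0.21 (adjusted p = 0.0089). Rescue lay inside the range of the controls, as did the knockout library KO2 1. Knockout was not called against the 4 controls. By edgeR, rescue was at -1.15 (adjusted p = 0.019) against controls 1 and 2 alone, and was not called against controls 3 and 4 alone. LOXL2 was lower in rescue in all 4 pairs, by 1.03 ± 0.15 in the paired fit (adjusted p = 0.0089). Its values give a larger drop in line 1 than in line 2, but the difference between the lines was not called. ANGPTL4 fell in all 4 pairs, by 0.56 ± 0.11 (adjusted p = 0.037), which took it further from the controls.

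NDRG1 was lower in rescue in both pairs of line 1 and in 1 of the 2 pairs of line 2. Its paired mean was -1.07 ± 0.12 (adjusted p = 0.0036). It was the single gene of the 40 whose rescue effect differed between lines in the paired fit (line 2 minus line 1, 2.52 ± 0.25, adjusted p = 0.0052, against 0.562% of all genes). Without the pair block 0 of the 40 genes were called for that difference, with 1 at an unadjusted p under 0.05, as were 0% of all genes. DESeq2 called 0 as well, against 0.166% of all genes. Over all 40 genes, rescue was below its knockout in 4 of 4 pairs for 5 (ANGPTL4, CA12, EGLN2, LOXL2 and RORA; 12.5%, against 12.7% of all genes) and above in 4 of 4 for KDM4B alone (2.5%, against 10.8%). The median difference was -0.06, against -0.01 over all genes.

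**Figure D4:**
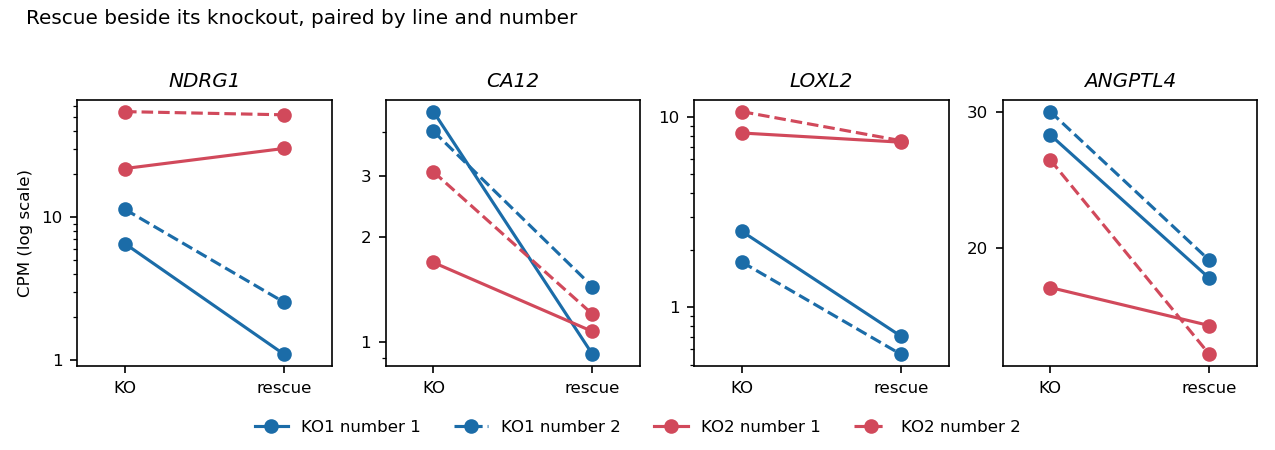
CPM on a log axis for the 4 genes called in the paired fit of rescue against knockout, each line joining a knockout library to the rescue library of the same line and number. CA12, LOXL2 and ANGPTL4 go down in 4 of 4 pairs, while NDRG1 goes down steeply in line 1 and goes up in 1 pair of line 2.

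Rescue libraries were also compared with the controls. In this comparison 10 of the 40 were called, 2 higher and 8 lower, against 15.4% of all genes (5.53% higher, 9.90% lower). The median was -0.54, against -0.01 over all genes. The 2 higher genes were VHL (0.74 ± 0.10, adjusted p = 8.31e-04) and RORA (1.48 ± 0.38, adjusted p = 0.025). ANGPTL4 was lower by 1.51 ± 0.23 (adjusted p = 0.0020) and NDRG1 by 3.37 ± 0.79 (adjusted p = 0.017). With controls 3 and 4 alone as the reference NDRG1 was at -1.14 (adjusted p = 0.13), PLOD2 at -0.93 (adjusted p = 0.064) and RORA at 1.13 (adjusted p = 0.15), and none of these was called. The other 6 were BNIP3, CITED2, ERO1A, P4HA1, PLOD1 and PLOD2. These comparisons share their controls with those of the knockout. NDRG1 lost its call without KO1 RES 1, KO1 RES 2 or KO2 RES 1 (adjusted p from 0.056 to 0.081), PLOD2 without KO1 RES 1 (0.066), and RORA without control 1, 2 or 4, KO1 RES 2 or KO2 RES 2 (0.051 to 0.11). The other 7 kept theirs. Against controls 3 and 4 alone 10 genes were called (12.8% of all genes), the other 7 of the 10 among them, and against controls 1 and 2 alone 19 (22.8%). DESeq2 called 16 with all controls, 14 of them lower, against 19.0% of all genes.

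Some of the 40 genes differed with the library number in both lines. Among the 8 knockout and rescue libraries, number 2 was compared with number 1 in a fit that kept the 4 line and rescue groups apart. Of the 40 genes, 13 were higher in number 2 and 2 lower, while 20% of all 19766 genes tested were called (9.82% higher, 10.2% lower). The median was 0.22, against 0.02 over all genes. Number 2 was above number 1 in 4 of 4 pairs for 19 genes (47.5%, against 20.3% of all genes) and below for ARNT, EGLN1 and EGLN2 (7.5%, against 21.1%). What the number marks is not given in the labels, other than that the genotype field divides the 8 libraries by it.

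CA9 had the largest difference, 2.39 ± 0.35 (adjusted p = 0.0022). It was at 0.288 and 3.06 CPM in KO1, 0.391 and 1.36 in KO1 rescue, 0.0920 and 0.801 in KO2, and 0.338 and 0.924 in KO2 rescue. Of these 8 libraries, every number 2 library was above every number 1 library, and the lowest value was close to the floor. DDIT4, an inhibitor of mTORC1 signalling, was at 122, 139, 66.9 and 123 CPM in the controls, 60.7 and 161 in KO1, 77.8 and 155 in KO1 rescue, 97 and 141 in KO2, and 93.5 and 169 in KO2 rescue. Again number 2 did not overlap number 1 in the knockout and rescue libraries, and the difference was 0.94 ± 0.12 (adjusted p = 0.0011). DDIT4 was called in no comparison of knockout, rescue or line. NDRG1 was higher in number 2 by 1.0 ± 0.12 (adjusted p = 8.55e-04), PLOD2 by 0.66 ± 0.09 (adjusted p = 0.0018) and BNIP3L by 0.60 ± 0.10 (adjusted p = 0.0044).

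AK4 was at 28.7 and 35.7 CPM in KO1, 35.8 and 60.9 in KO1 rescue, 6.91 and 13.9 in KO2, and 8.33 and 13.1 in KO2 rescue, higher in number 2 by 0.68 ± 0.11 (adjusted p = 0.0035). INSIG2, which retains the sterol sensor in the endoplasmic reticulum, was at 18.7, 17.4, 15 and 18.3 CPM in the controls, 14.7 and 17.4 in KO1, 13.5 and 17.9 in KO1 rescue, 12.5 and 17.0 in KO2, and 12.8 and 18.3 in KO2 rescue. Its number 2 libraries lay inside the range of the controls and its number 1 libraries were below all 4. KDM4B, a histone demethylase, was at 30.3, 30.7, 24.6 and 26.7 CPM in the controls, 24.8 and 31.0 in KO1, 27.1 and 33.2 in KO1 rescue, 20.7 and 25.4 in KO2, and 23.5 and 27.8 in KO2 rescue. The other genes higher in number 2 were P4HA1, P4HA2, ANKZF1, LOX and MXI1, by 0.34 to 1.49. EGLN2 was lower in number 2 by 0.49 ± 0.09 (adjusted p = 0.0066) and EGLN1 by 0.29 ± 0.09 (adjusted p = 0.0497).

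**Figure D5:**
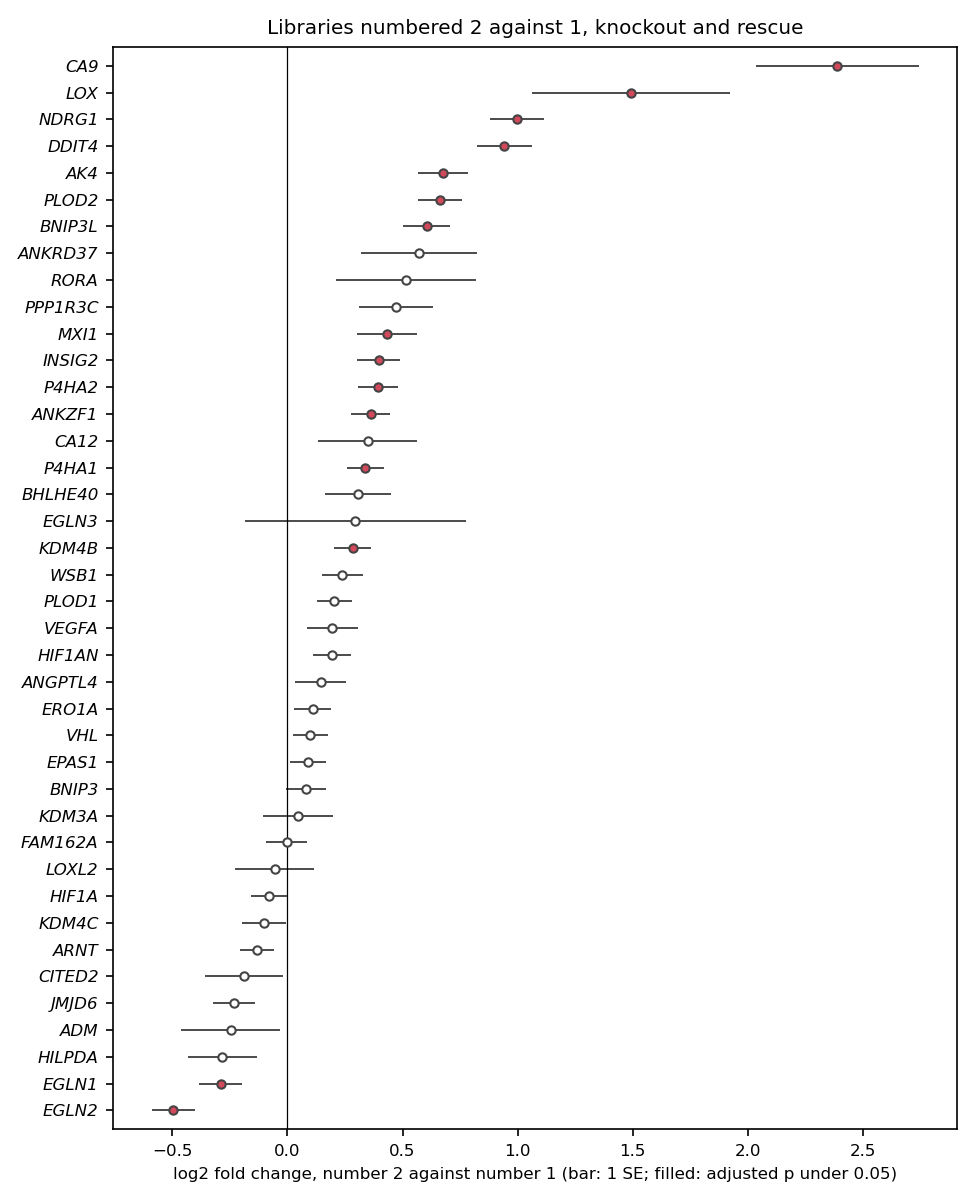
Difference between libraries numbered 2 and 1 among the 8 knockout and rescue libraries, for each of the 40 genes on the log2 scale with bars of 1 SE, filled where the adjusted p is under 0.05. CA9, LOX, NDRG1 and DDIT4 lie farthest to the right, and EGLN1 and EGLN2 are the called genes to the left of 0.

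Of the 13 genes higher in number 2, 11 also had both of controls 1 and 2 above both of controls 3 and 4, and none had both below. The exceptions were DDIT4 and INSIG2. Among all genes higher in number 2, 34.6% had controls 1 and 2 above and 27.8% had them below. Of the 40 genes, whatever their difference by number, 60% had them above and 10% below. AK4, BNIP3L, CA9, DDIT4, EGLN2, NDRG1 and PLOD2 kept their calls whichever of the 8 libraries was left out. The other 8 lost theirs without some library, with adjusted p from 0.052 to 0.19: EGLN1 and LOX without any 1 of the 8, the rest without KO2 1, KO2 2, KO1 RES 1 or KO1 RES 2, and KDM4B and MXI1 without 2 more. EGLN1 was at -0.19 without KO2 RES 1 or KO2 RES 2. The 4 controls were also added to the fit as a group of their own, with no number term for them. The common biological coefficient of variation was then 23.6% in place of 12.4%. EdgeR called 0 of the 40 and 0 of all genes, with 11 of the 40 at an unadjusted p under 0.05.

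The remaining genes were not called by edgeR in the 12-library or number fits without a block. VEGFA, the main vessel growth factor, ranged from 85.9 to 151 CPM, its lowest library a control and its highest KO2 RES 2. WSB1 ranged from 114 to 189 CPM, KDM3A from 34.2 to 66.2, JMJD6 from 42.3 to 69.4 and KDM4C from 16.6 to 23.4 CPM. PPP1R3C, a glycogen-targeting subunit of a phosphatase, ranged from 1.92 to 9.80 CPM (-1.33 in knockout against controls 1 and 2 alone, adjusted p = 0.0050) and ANKRD37 from 0.783 to 2.70 CPM. HILPDA, a lipid droplet protein, was highest in controls 1 and 2 at 57.0 and 54.5 CPM and lowest in KO2 RES 2 at 13.6 CPM. Against controls 1 and 2 alone HILPDA fell by 0.88 in knockout (adjusted p = 0.018) and by 1.13 in rescue (adjusted p = 0.0052). DESeq2 called PPP1R3C in KO1 (-1.35, adjusted p = 0.0085) and in library number (0.47, adjusted p = 0.042). HILPDA shares 13.2% of its exon length with other transcripts. An absent call does not show that these genes were equal between groups.

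Per kilobase of exon, the most abundant of the 40 in the controls were PLOD1 (57.4 ± 4.64 CPM per kb, SD, n = 4), DDIT4 (54.7 ± 15.3), ERO1A (43.1 ± 1.38), P4HA1 (38.6 ± 11.9), BHLHE40 (38.5 ± 3.43) and HIF1A (34.9 ± 0.442). Neighbours in this order overlapped within their SDs. LOX, EGLN3 and RORA were lowest, at 0.134, 0.0456 and 0.00711 CPM per kb.

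A further 3 lists from the same pathway were read beside these genes. Of 21 HIF targets of glycolysis, knockout against control called 2 higher and 3 lower (9.52% and 14.3%, against 6.75% and 9.36% of all genes), with a median of 0.10. HK2, a hexokinase, and PFKP, a phosphofructokinase, rose by 1.42 ± 0.24 and 1.27 ± 0.19, while SLC2A3, a glucose transporter, fell by 1.19 ± 0.20 and PFKL by 0.72 ± 0.11. SLC2A3 was at 410, 413, 300 and 247 CPM in the controls, 41.5 and 40.1 in KO1, and 606 and 506 in KO2, so that KO1 lay below and KO2 above all 4 controls. Of 15 other parts of the oxygen-sensing machinery tested, out of 16 listed, SIAH1, a ubiquitin ligase, was called (0.49 ± 0.15, adjusted p = 0.047). Of 26 other HIF targets tested, out of 30, 6 rose and 5 fell (23.1% and 19.2%, against 6.75% and 9.36% of all genes). Among them HMOX1, heme oxygenase, was up by 1.29 ± 0.18 and MET, a growth factor receptor, down by 0.90 ± 0.10. In library number, 7 of the 21 glycolysis genes were higher in number 2 and 2 lower (33.3% and 9.52%, against 9.82% and 10.2% of all genes), with a median of -0.07. ALDOC was higher by 1.28 ± 0.12, SLC16A3, the lactate exporter, by 1.81 ± 0.21, and ENO2 by 1.15 ± 0.17. Of the 26 other targets 5 were higher and 6 lower, and of the 15 machinery genes 2 were higher and 3 lower. In rescue against knockout edgeR called 0 genes of these 3 lists.

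All 11 hepatocyte markers were tested, and 5 were lower in knockout than control as the mean of both lines (APOB, FGB, TTR, APOA1 and ALB), beside the 9 of the 40 genes that fell in the same comparison. The lines lay on either side of the controls for APOB, which stood at 4821 to 6897 CPM in the controls, 10432 and 21509 CPM in KO1, and 20.2 and 47.8 CPM in KO2. Their summed level was 12243 to 22887 CPM in the controls and 5298 to 28585 CPM in the knockouts. The 7 fibroblast markers summed to 4.40 to 12.3 CPM in the 12 libraries, 1 of them (COL1A2) at or under 3 counts everywhere. The 5 endothelial markers matched (PECAM1 was not analysed here) summed to 0.311 to 2.02 CPM, 2 of them at or under the floor everywhere. Blood markers summed to 267 to 922 CPM, nearly all of it LYZ, with 910 and 922 CPM in controls 3 and 4, while 2 of the 7 were at or under the floor everywhere. The part of these marker levels in the differences above was not tested.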

How the data were processed

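RNA was measured by stranded mRNA sequencing in 12 libraries. The files hold whole-number read counts per gene as deposited by the authors. STAR 2.6.0b and the genome build GRCh37 are named in the submitters' processing notes, and other steps of the counting are not given in the sources used here. Each file has an unstranded and 2 stranded columns. The stranded column with 19.8 to 21.1 times the counts of the other was used, and its unassigned rows (23.2% to 31.5%) were left out of all totals. Counts of genes without a symbol (6.36%) were kept.

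CPM and tests were computed here with edgeR 4.0.16 in R 4.3.3 (filterByExpr, TMM, quasi-likelihood test, Benjamini-Hochberg adjustment over all genes tested), and DESeq2 1.42.0 was an alternative. One fit held 5 groups (control, KO1, KO1 RES, KO2, KO2 RES) and all 12 libraries, with 20559 genes, a common biological coefficient of variation of 25.8% and all 40 genes tested. The library number was tested in the 8 knockout and rescue libraries with 4 groups. Groups follow the titles. Among these 8, libraries of the same number deviated together from their group means (correlations of 0.24, 0.46, 0.21, 0.35, 0.31 and 0.29 over the 6 pairs of groups), so values with the number as a block are given where they change a count. The pairing of a rescue with its knockout comes from the numbers in the titles. The correlation with the own rescue was 0.24 for KO1 and 0.46 for KO2. With the rescue of the other line it was 0.31 for KO1 and 0.29 for KO2. The check thus shows deviations shared by number, and does not show that each rescue belongs to its own knockout. The deviations of controls 1 and 2 from the mean of the 4 controls were also set beside the libraries of their number. Their correlations were -0.07 to 0.01 and 0.09 to 0.19. The split between the control pairs enters these deviations, so they cannot show whether the controls follow their numbers.

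The 40 genes and all lists were chosen with earlier results of these data known. Values in every library are given for HIF subunits, sensors and each gene called in a main comparison, and of each further list up to 4 called genes with the smallest adjusted p are named. Promoter sequences are RefSeq's, of GRCh38.p14, and exon lengths are those of GENCODE release 29. The fits were also run on simulated counts with the same spread for every gene and no differences between lines or control pairs. Such counts do not test the fits under the structure of these data. Alternatives covered normalization, filtering, strand, the samples fitted, blocks, the genotype field and leaving out each library or pair of controls.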

Additional observations from a re-analysis of the deposited data

Results flagged for a closer look

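The knockout effect differed between the lines, by the test of the difference itself (edgeR's quasi-likelihood test), for 6 of the 40 genes and for HKDC1. On the log2 scale, as KO2 minus KO1, the difference was 3.33 for PLOD2, 2.15 for LOXL2, -0.60 for VHL, -1.70 for BHLHE40 and -1.77 for ADM. For LOX the fitted value was -8.42, which depends on the prior count because KO2 held no LOX counts. The KO1 mean of LOX was at least 13.8-fold higher than the floor. HKDC1 itself differed by -1.09 (adjusted p = 0.027), with 153 and 146 CPM in KO1 and 91.4 and 49.2 CPM in KO2. The part of the HKDC1 level in the other differences was not tested. A Dixon rule, which looks for a single extreme value, flagged no library among the 4 controls for any of the 40 genes. Both of controls 1 and 2 lay above both of controls 3 and 4 for 24 of these genes, and below for 4. Such a rule can miss a pair of libraries that lie together. The absence of a flag thus does not show that the controls were alike.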

How the results depend on the processing

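Over 76 results for single genes and 1507 alternative values, 1177 kept their call, 328 lost it and 2 changed sign. Both sign changes were for LOX in unstranded counts, at 0.0040 for KO2 against KO1 and 0.22 for line 2 against line 1, and the cause was not tested. VHL in KO1 kept its call in all 20 alternatives and BHLHE40 in KO2 against KO1 in all 18.

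Counts of the 40 genes called moved as follows. Where no share of all genes is given here or above, a count shows only how far it moves with the setting. Such a count is not a result particular to these genes. Without a filter on low counts they were 20 for knockout against control, 19 for KO1, 13 for KO2 against KO1, 4 for rescue against knockout, 2 for the difference between rescue effects and 19 for rescue against control. DESeq2 called 1 for rescue against knockout and 16 for rescue against control. With only the compared groups fitted, 3 were called in KO2 and 11 in KO2 against KO1. With the genotype field as the grouping, 18 were called for knockout against control. With only the 8 libraries whose labels agree, 2 were called for knockout and 1 for rescue against control. Without controls 1 and 2, 6 were called in KO2. Without controls 3 and 4, 19 were called for knockout, 17 for KO2 and 19 for rescue against control. With only number 1, chosen after seeing the data, 2 were called for knockout against control, 2 for rescue against control and 2 for line 2 against line 1, and with only number 2 these were 1, 1 and 2.

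The replicate number was also taken as a block over 12 libraries, although control numbers are not shown to mark the same thing. In that fit 20 were called for knockout against control (34.3% of all genes) and 21 for rescue against control (33.3%). For single lines 20 were called in KO1 (35.7%) and 24 in KO2 (29.8%). With the block over 8 libraries 23 were called for line 2 against line 1 and 17 for KO2 against KO1. With the pair block 4 were called for rescue against knockout and 1 for the difference between rescue effects. The number comparison over 12 libraries called 0.

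Leaving out 1 library at a time gave 6 to 15 calls for knockout against control, 3 to 15 for KO1, 1 to 10 for KO2, 1 to 7 for KO2 against KO1, 10 to 13 for line 2 against line 1, 8 to 15 for rescue against control, 7 to 14 for the number, and 0 to 0 for rescue against knockout and for the difference between rescue effects. These ranges are given without shares of all genes and show only how the counts move. Depth limits EGLN3, RORA and LOX most, since their lowest libraries were close to or under the floor.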
